A study of Coturnix japonica with 12 samples.

Results

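The genes described here are 43 listed genes of endothelial cells, the cells that line blood and lymphatic vessels, and of the signals that make vessels grow. They were chosen by gene symbol, and 41 of the 43 were found in a table of 16013 genes. ARHGEF15 and RASIP1 were not found by symbol and are not analysed here. Of the 41 genes, 39 reached 1 FPKM (counts scaled to exon length and sequencing depth) in at least 3 of 12 samples and were tested among 12113 genes. PROX1 and STAB2 stayed under that minimum and are given by their levels.

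Expression was measured by RNA sequencing in Müllerian ducts, the tubes that become the oviduct, taken from embryos of female Japanese quail (Coturnix japonica). The embryos were kept in surrogate eggshells and received sesame oil, alone or with the synthetic oestrogen ethynylestradiol (EE), from embryonic day 3 to 12. Left and right ducts were sampled under each exposure, which gives 4 groups of 3 samples: left oil, right oil, left EE and right EE. The 3 samples are not said to come from separate embryos, so p-values measure the spread between these samples, which may be technical. The series compares the sides with and without EE, since in female birds the left duct persists and the right one regresses.

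Blood vessels sprout when VEGFA, secreted by the surrounding tissue, activates the receptor KDR on endothelial cells, while FLT1 binds the same ligand and limits its action. The angiopoietins act through the receptor TEK and its partner TIE1 to stabilise or loosen vessel walls, and apelin with its receptor APLNR acts in growing vessels. Lymphatic vessels are specified by the transcription factor PROX1 and grow in response to VEGFC through FLT4.

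Each sample had 13303458 to 23621985 counts in all, and the 39 tested genes had 32 to 7138 counts per sample. EMX2, a factor of the urogenital ducts, was read at 56.2 to 85.9 FPKM over all 12 samples. The duct factor PAX2 stood at 10.8 to 12.1 FPKM in right oil ducts and 18.6 to 31.5 in the other 9 samples, and the duct epithelial signal WNT7A at 10.1 to 12.4 and 20.7 to 30.5 FPKM. Haemoglobin transcripts took 1.35% to 3.01% of counts in left oil ducts, 6.11% to 12.7% in right oil ducts, 0.991% to 2.1% in left EE ducts and 1.66% to 5.65% in right EE ducts. The library oil_right 1 had 228 CPM (counts scaled to the TMM-corrected library size) from 11 skeletal muscle genes, against 13.3 to 26.4 CPM in the other 11 libraries.

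In oil, most of the endothelial genes were higher in left than in right ducts, while VEGFA, KDR and ANGPT1 were higher on the right. On the left 22 of the 39 genes had higher levels and 7 lower at a Benjamini-Hochberg adjusted p under 0.05 (edgeR quasi-likelihood test), where 18.4% of all tested genes were called higher and 18.1% lower. The count of lower genes is near that share. The median log2 ratio of left to right for the 39 genes was 0.75, against -0.0037 over all tested genes. In these bulk samples, fewer endothelial cells and less RNA per cell cannot be told apart. With EE, none of the 39 genes was called different between the sides, where 0% of all tested genes were called higher and 0.0826% lower. That count is near the share over all genes.

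EE against oil in right ducts gave 22 genes higher and 7 lower, where 17.6% and 16.4% of all tested genes were called, and a median log2 ratio of 0.62 against 0.0028 over all tested genes. EE against oil in left ducts gave 2 genes higher, VEGFC and SOX17, and 7 lower, where 6.79% and 6.46% of all tested genes were called. The median there was -0.17 against 0.0025. The counts of falling genes in right ducts and of rising genes in left ducts are near the shares over all genes. The comparison in right ducts and the comparison of sides in oil share the 3 right oil libraries, so their values are given side by side and not as independent results.

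**Figure D1:**
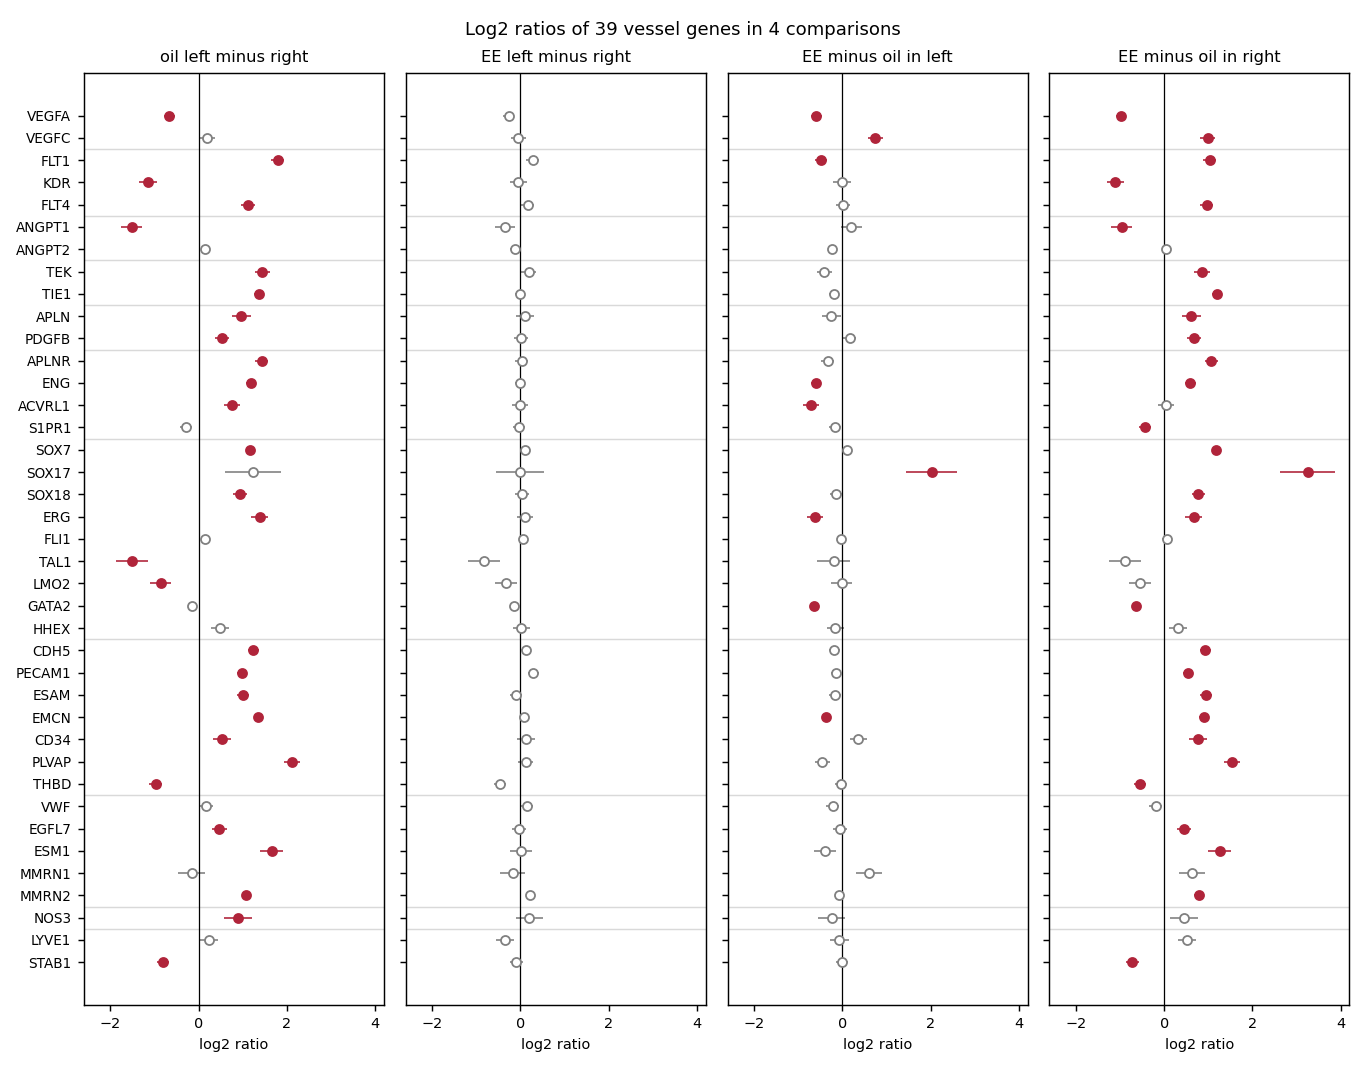
Log2 ratios of the 39 tested genes (rows, grouped by role) in 4 comparisons (panels), with bars for ± 1 SE of the edgeR fit to 12 samples. Filled red points passed an adjusted p of 0.05 and open grey points did not: 29 genes passed between the sides in oil, 0 between the sides with EE, 9 for EE minus oil in left ducts and 29 for EE minus oil in right ducts. Of all 12113 tested genes, 4422, 10, 1605 and 4122 passed in the same order.

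VEGFA, the main growth and survival signal of blood endothelium, was read at 15.4, 16.1 and 15.7 FPKM in left oil ducts, against 19.0, 21.8 and 24.8 in right oil ducts. The EE samples gave 10.1, 9.30 and 12.2 FPKM in left ducts and 12.1, 11.8 and 13.5 in right ducts. The right oil ducts were the highest group, and every EE sample lay below every oil sample. On the log2 scale VEGFA was lower on the left in oil (-0.66 ± 0.12 SE, adjusted p = 0.000386) and fell with EE in left ducts (-0.59 ± 0.12, adjusted p = 0.00297) and in right ducts (-0.98 ± 0.12, adjusted p = 1.27e-05). With the log2 of the summed haemoglobin CPM of each sample as a covariate, the difference between sides in oil stood at -0.44 (adjusted p = 0.179). Haemoglobin shares did not overlap between left and right oil ducts, nor between right oil and right EE ducts. This fit therefore does not cleanly separate side or exposure from haemoglobin, here or for the genes below. VEGFA lies on chromosome 3, bases 27553456 to 27575878 of the minus strand (assembly Coturnix japonica 2.1, as for all positions here).

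VEGFC, the main growth signal of lymphatic endothelium, was read at 5.75, 5.19 and 7.25 FPKM in left oil ducts, against 4.77, 4.90 and 4.17 in right oil ducts. With EE the levels were 10.9, 8.88 and 10.8 FPKM (left) and 11.9, 10.01 and 9.09 (right). Every EE sample lay above every oil sample, opposite to VEGFA. VEGFC rose with EE in left ducts (0.74 ± 0.17, adjusted p = 0.00755) and in right ducts (0.99 ± 0.17, adjusted p = 0.000354), and the sides did not pass the test in oil (0.20 ± 0.17, adjusted p = 0.401). It lies on chromosome 4, bases 39527001 to 39587921 of the minus strand.

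FLT1, the receptor that holds VEGFA back, was read at 4.05, 4.83 and 5.11 FPKM in left oil ducts, against 1.23, 1.13 and 1.20 in right oil ducts. Under EE the left ducts had 3.50, 3.47 and 3.12 FPKM and the right ducts 3.01, 2.88 and 2.26. All 4 groups were apart, in the order left oil, left EE, right EE, right oil, although the step between the EE groups did not pass the test (0.28 ± 0.14, adjusted p = 0.697). The left to right log2 ratio in oil was 1.79 ± 0.15 (adjusted p = 2.1e-07), and FLT1 rose with EE in right ducts (1.03 ± 0.15, adjusted p = 5.93e-05). In left ducts it fell with EE (-0.48 ± 0.14, adjusted p = 0.0296), a call lost without oil_left 2, without oil_left 3 or without any 1 of the left EE libraries, with adjusted p from 0.0572 to 0.107. FLT1 lies on chromosome 1, bases 157251456 to 157350986 of the plus strand.

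KDR, the main signalling receptor of VEGFA, ran the other way between the sides. It was read at 8.63, 9.01 and 7.59 FPKM in left oil ducts, against 12.9, 22.3 and 13.6 in right oil ducts. The EE samples gave 8.94, 7.05 and 9.34 FPKM in left ducts and 8.68, 9.29 and 7.82 in right ducts, and the right oil ducts lay above all other samples. KDR was lower on the left in oil (-1.15 ± 0.20, adjusted p = 0.000285) and fell with EE in right ducts (-1.11 ± 0.20, adjusted p = 0.00041), while left ducts gave -0.01 ± 0.20 for EE against oil (adjusted p = 0.986). The highest value was in oil_right 2, the library with 12.7% haemoglobin transcripts. With haemoglobin as a covariate the difference between sides in oil was -0.77 (adjusted p = 0.143). The part of blood cells in the KDR values was not tested. KDR lies on chromosome 4, bases 58803936 to 58831351 of the plus strand.

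A further gene that the files describe as a kdr-like VEGF receptor, LOC107312792, is no listed gene and was added after its values had been seen. It was read at 38.7, 38.4 and 43.2 FPKM in left oil ducts, against 112, 125 and 135 in right oil ducts. With EE the levels were 38.2, 27.0 and 33.9 FPKM (left) and 42.0, 40.2 and 34.6 (right). Its level was above that of KDR in every sample, and the right oil ducts again stood above the rest (-1.81 ± 0.13 for left minus right in oil, adjusted p = 4.11e-08; -1.84 ± 0.13 for EE minus oil in right ducts, adjusted p = 8.28e-08). A lower gene described as VEGF receptor 2-like, LOC107312815, was read at 0.93 to 4.70 FPKM. The counting could split reads among these related genes, so their separate levels are uncertain.

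FLT4, the receptor of VEGFC, was read at 5.20, 6.40 and 5.26 FPKM in left oil ducts, against 3.01, 2.04 and 1.82 in right oil ducts. Under EE the left ducts had 5.81, 5.17 and 6.23 FPKM and the right ducts 4.53, 5.63 and 4.92. Only the right oil ducts stood apart, below all other samples. The left to right log2 ratio was 1.12 ± 0.15 in oil (adjusted p = 3.82e-05), and FLT4 rose with EE in right ducts (0.97 ± 0.15, adjusted p = 0.000159) but not past the test in left ducts (0.02 ± 0.15, adjusted p = 0.965).

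**Figure D2:**
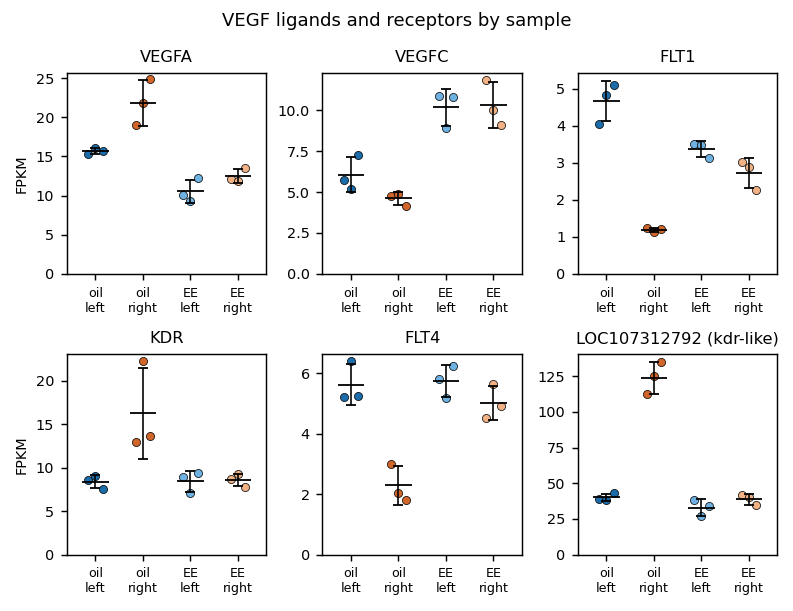
FPKM (vertical axes, from 0) of VEGFA, VEGFC, FLT1, KDR, FLT4 and the kdr-like gene LOC107312792 in the 3 samples (points) of each of the 4 groups, with the mean (line) and ± 1 SD (bar). Right oil ducts hold the lowest FLT1 and FLT4 and the highest VEGFA, KDR and LOC107312792, and the 6 EE samples hold the highest VEGFC.

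Within each sample the FLT1 to KDR ratio of FPKM was 0.469, 0.536 and 0.673 in left oil ducts, against 0.0953, 0.0506 and 0.0881 in right oil ducts. In EE it was 0.391, 0.492 and 0.334 in left ducts and 0.347, 0.310 and 0.289 in right ducts, so that every right oil sample lay under all others. The VEGFA to FLT1 ratio was 3.80, 3.33 and 3.06 in left oil ducts, against 15.4, 19.3 and 20.7 in right oil ducts. It was 2.68 to 3.91 in left EE ducts and 4.03 to 5.98 in right EE ducts, below all right oil samples. The VEGFA to KDR ratio, in contrast, overlapped between the sides in oil (1.78 to 2.06 on the left, 0.975 to 1.82 on the right), and in left ducts it was lower with EE (1.13 to 1.32). Both ratios with KDR leave out the kdr-like gene LOC107312792, with which KDR may share reads. The VEGFC to FLT4 ratio was lowest in left oil ducts (0.811 to 1.38), and stood at 1.58 to 2.40 in right oil ducts, 1.72 to 1.87 in left EE ducts and 1.78 to 2.62 in right EE ducts. With 3 samples against 3, the two-sided exact permutation test cannot give a p under 0.1, and the smallest value after adjustment over 50 tests (10 ratios in 5 comparisons) was 0.185, so none of these ratios could pass the threshold.

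**Figure D3:**
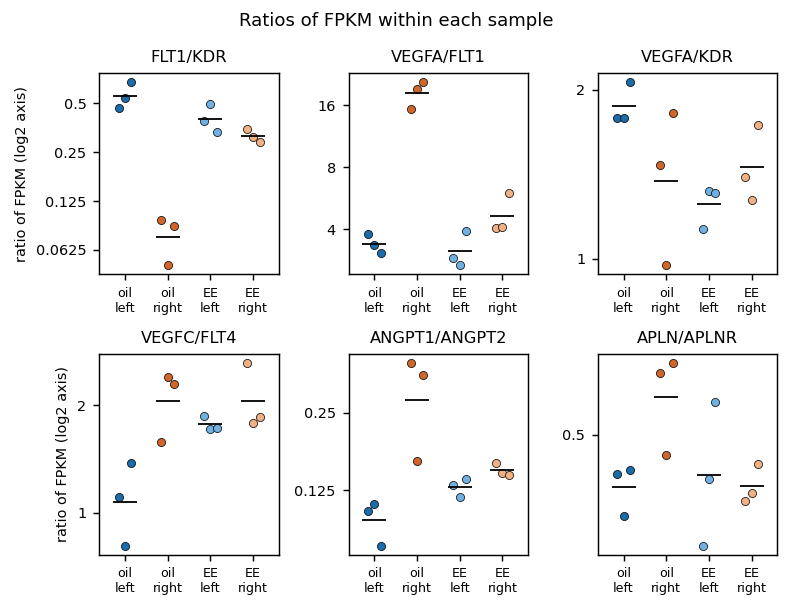
Ratios of FPKM between 2 genes within a sample (log2 vertical axes) for 6 gene pairs in the 4 groups. Points are the 3 samples and lines their geometric mean: right oil ducts lie lowest for FLT1/KDR (0.0506 to 0.0953) and highest for VEGFA/FLT1 (15.4 to 20.7).

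The angiopoietins and their receptors gave 1 ligand higher on the right, 1 ligand without a call and both receptors higher on the left. ANGPT1, the stabilising ligand of TEK, was read at 5.07, 5.26 and 4.64 FPKM in left oil ducts, against 17.9, 6.31 and 14.4 in right oil ducts. The EE samples gave 5.19, 5.86 and 6.40 FPKM in left ducts and 7.77, 7.0 and 7.07 in right ducts, so that oil_right 2 lay among the EE samples. ANGPT1 was lower on the left in oil (-1.52 ± 0.24, adjusted p = 0.000138) and fell with EE in right ducts (-0.96 ± 0.23, adjusted p = 0.00449), which limma on log2(FPKM + 1) placed above the threshold (adjusted p = 0.0591). ANGPT2, the context-dependent antagonist that the embryo makes in remodelling vessels, stood at 38.6 to 60.7 FPKM over all 12 samples and at higher FPKM than ANGPT1 in each of them. Its left to right log2 ratio in oil was 0.14 ± 0.10 (adjusted p = 0.275), and it passed the test under library-size scaling (0.33, adjusted p = 0.023). Under that scaling the median of all tested genes was 0.177, with 3749 called higher and 1224 lower on the left in oil. ANGPT2 overlaps MCPH1 on the other strand, and the strand setting of the counting is not given in the sources used here.

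TEK was read at 3.82, 3.04 and 3.89 FPKM in left oil ducts, against 1.28, 1.27 and 0.91 in right oil ducts. With EE the levels were 2.71, 2.89 and 2.59 FPKM (left) and 2.15, 2.49 and 2.44 (right). TIE1, its partner receptor, was read at 13.7, 13.1 and 12.98 FPKM in left oil ducts, against 5.55, 3.95 and 4.17 in right oil ducts. Under EE the left ducts had 10.9, 11.7 and 12.7 FPKM and the right ducts 10.6, 12.4 and 12.2. For both genes the 3 right oil samples lay below the 9 others. The left to right log2 ratios in oil were 1.45 ± 0.18 for TEK and 1.37 ± 0.11 for TIE1 (adjusted p = 1.41e-05 and 1.64e-07), and both rose with EE in right ducts (0.86 ± 0.18 and 1.20 ± 0.11). The ANGPT1 to ANGPT2 ratio was 0.0764 to 0.111 in left oil ducts, 0.163 to 0.390 in right oil ducts, 0.118 to 0.139 in left EE ducts and 0.144 to 0.160 in right EE ducts.

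**Figure D4:**
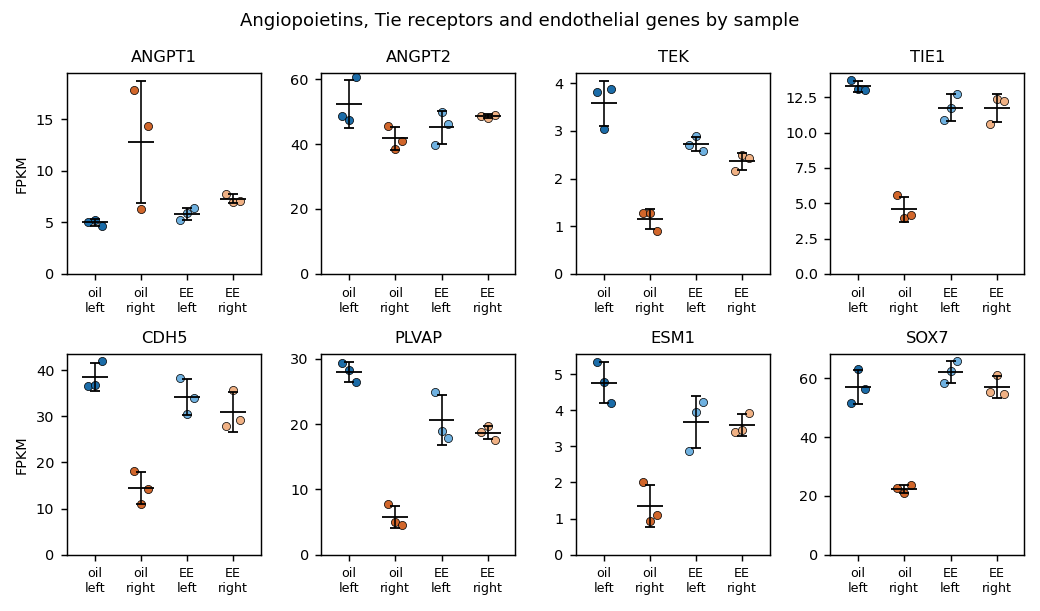
FPKM (vertical axes, from 0) of ANGPT1, ANGPT2, TEK, TIE1, CDH5, PLVAP, ESM1 and SOX7 in the 3 samples (points) of each group, with the mean (line) and ± 1 SD (bar). TEK, TIE1, CDH5, PLVAP, ESM1 and SOX7 are lowest in the 3 right oil samples, ANGPT1 is highest in 2 of them (17.9 and 14.4), and ANGPT2 ranges from 38.6 to 60.7 over all samples.

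Among the other signals, APLN, the apelin ligand, was read at 16.7, 15.4 and 12.3 FPKM in left oil ducts, against 8.69, 5.13 and 6.38 in right oil ducts. In EE it stood at 9.96 to 15.04 FPKM in left ducts and at 10.6 to 12.8 in right ducts. APLN was higher on the left in oil (0.97 ± 0.22, adjusted p = 0.00251; 1.17 and adjusted p = 0.0506 with haemoglobin as a covariate). Its rise with EE in right ducts (0.62 ± 0.22, adjusted p = 0.0378) was lost without oil_right 2, oil_right 3 or any 1 of the right EE libraries (adjusted p from 0.059 to 0.142). Its receptor APLNR was read at 38.3, 40.6 and 27.7 FPKM in left oil ducts, 14.1, 11 and 9.98 in right oil ducts, 29.2, 29.9 and 26.9 in left EE ducts and 26.7, 27.4 and 28.4 in right EE ducts. Right oil ducts were again lowest, with a left to right log2 ratio of 1.43 ± 0.15 in oil (adjusted p = 2.5e-06) and a rise with EE in right ducts of 1.07 ± 0.15 (adjusted p = 4.93e-05).

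PDGFB, with which endothelium recruits pericytes, stood at 8.47 to 11.1 FPKM in left oil ducts, 5.39 to 6.39 in right oil ducts, 9.38 to 12.2 in left EE ducts and 9.43 to 11.3 in right EE ducts. It rose with EE in right ducts (0.68 ± 0.15, adjusted p = 0.00307). Its higher level on the left in oil (0.52 ± 0.16, adjusted p = 0.0149) was lost without oil_left 3, oil_right 1 or oil_right 3 (adjusted p = 0.0705, 0.0569 and 0.0539). Its receptor PDGFRB on mural cells, no listed gene, was read at 25.8 to 36.7 FPKM over all samples.

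ENG and ACVRL1 are the endothelial receptors through which BMP9 and BMP10 quieten vessels. ENG was read at 26.8, 24.7 and 23.2 FPKM in left oil ducts, 9.81, 9.96 and 9.07 in right oil ducts, 17.4, 17.2 and 15.3 in left EE ducts and 17.9, 16.5 and 14.5 in right EE ducts. Both EE groups lay between the oil groups with no overlap: ENG fell with EE in left ducts (-0.60 ± 0.11, adjusted p = 0.00202) and rose in right ducts (0.59 ± 0.12, adjusted p = 0.000924). It overlaps FPGS on the other strand. ACVRL1 was read at 13.4 to 15.5 FPKM in left oil ducts, 7.05 to 7.91 in right oil ducts, 6.46 to 11 in left EE ducts and 7.33 to 10.54 in right EE ducts. It was higher on the left in oil (0.75 ± 0.18, adjusted p = 0.00457) and fell with EE in left ducts (-0.71 ± 0.18, adjusted p = 0.0154), with 0.04 ± 0.18 in right ducts. The fall was lost without oil_left 1, EE_left 2 or EE_left 3 (adjusted p = 0.0616, 0.0703 and 0.0513), and the difference between sides was lost with haemoglobin as a covariate (adjusted p = 0.162). S1PR1, the sphingosine-1-phosphate receptor, stood at 5.87 to 8.83 FPKM in all samples, with 1 call, lower with EE in right ducts (-0.44 ± 0.14, adjusted p = 0.0202), that was lost without oil_right 1, oil_right 3, EE_right 1 or EE_right 2 (adjusted p from 0.0662 to 0.0977) and under library-size scaling.

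Set side by side, 7 of the 9 receptors were higher and KDR lower on the left in oil, with a median log2 ratio of 1.19, and 6 rose and 2 (KDR and S1PR1) fell with EE in right ducts. Of the 6 ligands, APLN and PDGFB were higher and VEGFA and ANGPT1 lower on the left in oil, with a median of 0.17. With EE in right ducts VEGFC, PDGFB and APLN rose and VEGFA and ANGPT1 fell. Over all tested genes, 18.4% were called higher and 18.1% lower on the left in oil. With EE in right ducts 17.6% rose and 16.4% fell. The counts of lower and falling receptors are near or below these shares, and the ligand counts rest on 6 genes. The summed CPM of the 9 receptors was 368.6 to 408.9 in left oil ducts and 229.7 to 306.3 in right oil ducts, and that of the 6 ligands was 263.8 to 301.7 and 305.0 to 327.4. Scaled by library size alone, the receptor sums were still apart (384.5 to 421.7 on the left and 215.2 to 259.8 on the right), while the ligand sums overlapped (272.3 to 314.7 and 258.7 to 307.2). The receptor sums leave out the kdr-like gene LOC107312792, which was read above KDR in every sample and was higher in right than in left oil ducts. They thus describe the 9 listed receptors only, and the sums with that gene were not tested.

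Of the 9 tested transcription factors, 3 were higher and 2 lower on the left in oil, and 4 rose and 1 fell with EE in right ducts, where 18.4%, 18.1%, 17.6% and 16.4% of all tested genes were called in the same order. The counts of lower and falling factors are thus near or below the share over all genes. SOX7, a SOXF factor of endothelium, was read at 51.7, 63.1 and 56.4 FPKM in left oil ducts, 22.5, 21.0 and 23.6 in right oil ducts, 58.2, 62.3 and 65.9 in left EE ducts and 55.2, 61.1 and 54.6 in right EE ducts. The right oil samples were the only low ones (log2 ratio 1.17 ± 0.08 for left minus right in oil, adjusted p = 4.49e-08; 1.18 ± 0.08 for EE minus oil in right ducts, adjusted p = 8.38e-08). SOX18, a related factor of blood and lymphatic endothelium, had 5.70 to 11.4 FPKM in right oil ducts and 14.9 to 18.9 in the other 3 groups. Its log2 ratio was 0.94 ± 0.15 between sides in oil (adjusted p = 0.0934 with haemoglobin as a covariate) and 0.77 ± 0.15 for EE in right ducts.

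SOX17, the SOXF factor of arterial endothelium that is also made in endoderm and, in mouse, in oviduct epithelium, varied most within groups. It was read at 0.57, 2.01 and 3.58 FPKM in left oil ducts, against 1.15, 0.62 and 0.49 in right oil ducts. The EE samples gave 9.85, 3.00 and 11.5 FPKM in left ducts and 13.8, 5.42 and 4.71 in right ducts. It reached 1 FPKM in 3 of the 6 oil samples and in all 6 EE samples, and had the largest coefficient of variation of the tested genes in each group (46.4% to 73.3%). SOX17 rose with EE in right ducts (3.26 ± 0.63, adjusted p = 0.000839) and in left ducts (2.03 ± 0.58, adjusted p = 0.0285), where EE_left 2 lay below oil_left 3. The rise in left ducts was lost without oil_left 1, oil_left 2, EE_left 1 or EE_left 3 (adjusted p = 0.102, 0.0837, 0.0878 and 0.114).

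ERG, an ETS factor that maintains endothelial identity, was read at 4.15 to 4.82 FPKM in left oil ducts, 1.12 to 2.09 in right oil ducts, 2.75 to 3.16 in left EE ducts and 2.1 to 3.15 in right EE ducts. It was higher on the left in oil (1.39 ± 0.19, adjusted p = 4.04e-05; 0.82 and adjusted p = 0.0568 with haemoglobin as a covariate). ERG fell with EE in left ducts (-0.61 ± 0.19, adjusted p = 0.0372) and rose in right ducts (0.67 ± 0.19, adjusted p = 0.0122). The fall was lost when any 1 library of the left ducts was left out (adjusted p from 0.0572 to 0.115), and the rise without oil_right 2, oil_right 3 or EE_right 2 (adjusted p = 0.06, 0.059 and 0.0619). With haemoglobin as a covariate the rise stood at 0.29 (adjusted p = 0.381). FLI1, its relative, stood at 6.27 to 9.74 FPKM in all samples, with no call in any comparison (0.14 ± 0.10 between sides in oil). FLI1 passed that test under library-size scaling (0.32, adjusted p = 0.0269), where the median of all tested genes was 0.177.

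GATA2, a factor of endothelial and blood progenitor cells, was read at 63.6, 61.4 and 57.0 FPKM in left oil ducts, 58.5, 53.5 and 65.6 in right oil ducts, 37.1, 37.2 and 43.5 in left EE ducts and 37.4, 43.6 and 46.9 in right EE ducts. Every EE sample lay below every oil sample, and the sides overlapped under both exposures. GATA2 fell by nearly the same amount in both ducts (-0.64 ± 0.09 in each, adjusted p = 0.000192 on the left and 7.07e-05 on the right), with a difference between the 2 effects of -0.002 ± 0.13. TAL1 and LMO2, partners in a complex of endothelial and erythroid precursors, were lower on the left in oil (-1.51 ± 0.37 and -0.86 ± 0.25, adjusted p = 0.00455 and 0.0119). TAL1 was read at 14.1, 31.3 and 19.8 FPKM in right oil ducts and LMO2 at 31.5, 56.9 and 37.2, with the highest value of each in oil_right 2. With haemoglobin as a covariate both ratios turned sign and lost the call (0.30 and 0.25, adjusted p = 0.703 and 0.636), and LMO2 also lost it without oil_left 2 (adjusted p = 0.051) or oil_right 2 (-0.51, adjusted p = 0.0896). HHEX, a homeobox factor of early endothelium, stood at 3.88 to 7.57 FPKM with no call (0.48 ± 0.19 between sides in oil, adjusted p = 0.064). That difference passed with DESeq2, with limma on both FPKM scales, under library-size scaling and without oil_left 1 (adjusted p from 0.0037 to 0.0483), and limma also called HHEX higher with EE in right ducts (adjusted p = 0.0254 and 0.0228).

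All 7 genes of endothelial junctions and surfaces were called between the sides in oil and with EE in right ducts, 6 in 1 direction and THBD in the other. Among all tested genes, 18.4% were called higher and 18.1% lower on the left in oil. With EE in right ducts 17.6% rose and 16.4% fell. The single call of THBD in its direction is near these shares. CDH5, the cadherin of endothelial junctions, was read at 36.6, 36.9 and 42.0 FPKM in left oil ducts, 18.1, 11.1 and 14.2 in right oil ducts, 38.3, 30.5 and 33.9 in left EE ducts and 27.8, 35.8 and 29.2 in right EE ducts. The right oil samples lay below all others (1.24 ± 0.13 between sides in oil, adjusted p = 2.67e-06; 0.93 ± 0.13 for EE in right ducts, adjusted p = 4.64e-05). PLVAP, the diaphragm protein of fenestrated capillaries, was read at 29.3, 28.2 and 26.4 FPKM in left oil ducts, 7.70, 5.01 and 4.5 in right oil ducts, 24.9, 19.0 and 17.9 in left EE ducts and 18.8, 19.7 and 17.6 in right EE ducts. It had the largest left to right log2 ratio of the 39 genes in oil (2.11 ± 0.18, adjusted p = 2.92e-07), rose with EE in right ducts (1.54 ± 0.18, adjusted p = 8.56e-06) and gave -0.46 ± 0.17 in left ducts (adjusted p = 0.0874), which passed with DESeq2 (adjusted p = 0.0458). It lies on chromosome 28, bases 2491312 to 2493872 of the minus strand.

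PECAM1, ESAM, EMCN and CD34 had log2 ratios of 0.98, 1.01, 1.35 and 0.53 between the sides in oil and of 0.54, 0.94, 0.90 and 0.77 for EE in right ducts. EMCN, a sialomucin of veins and capillaries, stood at 15.7 to 18.0 FPKM in left oil ducts, 4.82 to 6.38 in right oil ducts, 12.5 to 14.1 in left EE ducts and 11.3 to 13.4 in right EE ducts. Its fall with EE in left ducts (-0.37 ± 0.10, adjusted p = 0.0242) was lost without oil_left 1, oil_left 3, EE_left 1 or EE_left 2 (adjusted p = 0.0624, 0.0802, 0.0761 and 0.094). The call for CD34, a sialomucin of capillaries and progenitor cells, between the sides in oil (adjusted p = 0.0474) was lost in 9 of the 12 fits that left out 1 library, all but those without oil_left 2, oil_right 1 or EE_right 1 (log2 ratio from 0.31 without oil_right 3 to 0.80 without oil_right 1). PECAM1 overlaps MILR1 on the other strand. THBD, the thrombin receptor thrombomodulin, was read at 29.3, 32.0 and 34.2 FPKM in left oil ducts, 48.7, 55.0 and 61.7 in right oil ducts, 33.1, 30.7 and 30.1 in left EE ducts and 49.5, 32.5 and 44.0 in right EE ducts. It was lower on the left in oil (-0.98 ± 0.14, adjusted p = 5.43e-05) and fell with EE in right ducts (-0.56 ± 0.14, adjusted p = 0.00505). With haemoglobin as a covariate neither passed (adjusted p = 0.0688 and 0.146).

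Of the 5 secreted proteins, 3 were higher on the left in oil and rose with EE in right ducts, against 18.4% and 17.6% of all tested genes. ESM1, a proteoglycan of sprouting tip cells, was read at 5.32, 4.77 and 4.19 FPKM in left oil ducts, 2.01, 0.92 and 1.10 in right oil ducts, 2.86, 3.94 and 4.22 in left EE ducts and 3.40, 3.44 and 3.93 in right EE ducts. The right oil samples were lowest (1.66 ± 0.26 between sides in oil, adjusted p = 0.00014; 1.26 ± 0.26 for EE in right ducts, adjusted p = 0.00142). MMRN2, a matrix protein of endothelium, had 3.84 to 4.78 FPKM in right oil ducts and 7.61 to 10.4 elsewhere (1.07 ± 0.10 and 0.78 ± 0.10). EGFL7, a matrix protein around growing vessels, had 6.15 to 7.72 FPKM in right oil ducts and 9.04 to 12.8 elsewhere. Its calls (0.47 ± 0.16, adjusted p = 0.0337, and 0.45 ± 0.16, adjusted p = 0.0442) were the weakest of the group. The first was lost without oil_left 1, oil_left 2, oil_right 1 or oil_right 2 (adjusted p from 0.0508 to 0.133), and the second in 9 of 12 fits that left out 1 library, all but those without oil_left 1, oil_left 3 or EE_right 2. VWF, the clotting factor that endothelium stores, stood at 3.79 to 6.47 FPKM with no call (0.17 ± 0.15 between sides in oil), and it overlaps CD9 on the other strand. NOS3, the endothelial nitric oxide synthase, stood at 0.78 to 2.61 FPKM, and its higher level on the left in oil (0.90 ± 0.31, adjusted p = 0.0335) was lost without oil_left 1, oil_left 2, oil_right 2 or oil_right 3 (adjusted p from 0.0699 to 0.135).

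The genes linked to lymphatic endothelium ranged from under 1 FPKM for PROX1 and STAB2 to several FPKM for LYVE1 and STAB1. PROX1, the factor that defines lymphatic endothelium and is also made in other tissues, was read at 0.28, 0.61 and 0.48 FPKM in left oil ducts, 0.43, 0.24 and 0.31 in right oil ducts, 0.32, 0.35 and 0.75 in left EE ducts and 0.67, 0.45 and 0.40 in right EE ducts, from 44 to 152 counts. All 4 groups overlapped. PROX1 lay below the minimum of 1 FPKM set for the fit, and without that minimum it had no call in any comparison (0.30 ± 0.42 between sides in oil, adjusted p = 0.641; 0.47 ± 0.41 for EE in right ducts, adjusted p = 0.446). STAB2, a scavenger receptor of sinusoidal and lymphatic endothelium, had 10 to 96 counts and 0.06 to 0.54 FPKM, and no call without the minimum (adjusted p from 0.345 to 1.0). LYVE1, a hyaluronan receptor of lymphatic endothelium and some macrophages, stood at 4.09 to 6.0, 3.53 to 4.13, 3.44 to 5.76 and 4.91 to 6.88 FPKM in left oil, right oil, left EE and right EE ducts. It had no call (0.23 ± 0.21 between sides in oil, and 0.52 ± 0.21 for EE in right ducts, adjusted p = 0.0722). The latter passed under library-size scaling (0.68, adjusted p = 0.0195), where the median of all tested genes was 0.172. MMRN1, made by lymphatic endothelium and platelets, stood at 1.05 to 2.32 FPKM in the oil samples and 1.9 to 3.34 in the EE samples, with no call (0.62 ± 0.29 in left ducts and 0.63 ± 0.29 in right ducts).

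STAB1, a scavenger receptor of sinusoidal endothelium and of macrophages, was read at 6.59, 6.15 and 7.76 FPKM in left oil ducts, 13.9, 8.51 and 9.31 in right oil ducts, 6.15, 6.53 and 7.87 in left EE ducts and 7.27, 7.59 and 6.67 in right EE ducts. It was lower on the left in oil (-0.81 ± 0.15, adjusted p = 0.00045) and fell with EE in right ducts (-0.72 ± 0.14, adjusted p = 0.00116). The summed level of 11 macrophage genes was 116.1 to 127.3 CPM in left oil ducts, 326.6 to 330.7 in right oil ducts, 126.4 to 138.4 in left EE ducts and 146.8 to 175.9 in right EE ducts. The macrophage marker CSF1R was at 3.92 FPKM or more in every sample and MARCO at 0 to 0.29 FPKM. The part of macrophages in the STAB1 and LYVE1 values was not tested.

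The 17 listed genes of endothelium in general summed to 1038 to 1064 CPM in left oil ducts, 528.4 to 601.4 in right oil ducts, 887.3 to 968.7 in left EE ducts and 847.6 to 910.0 in right EE ducts. The 7 genes linked to lymphatic vessels (PROX1, FLT4, LYVE1, MMRN1, STAB1, STAB2 and VEGFC) summed to 145.1 to 167.5, 147.4 to 204.8, 146.5 to 189.4 and 161.9 to 185.0 CPM in the same groups. The first sum was lowest in right oil ducts with no overlap, and the second overlapped in all 4 groups, with FLT4 and STAB1 moving in opposite directions within it. A separate list of 9 other lymphatic genes summed to 764.9 to 863.0 CPM in right oil ducts, below left oil (933.1 to 1007), left EE (958.4 to 1088) and right EE ducts (894.8 to 1049). Of these 9, 5 were called higher on the left in oil and ADAMTS3 lower. RELN, a gene also of neurons, was at 10.49 to 17.9 FPKM in right oil ducts and 30.1 to 36.2 in left oil ducts. The sum weighs each gene by its counts, and RELN had 2593 to 12928 counts per sample. The lower sum in right oil ducts thus need not describe the other genes of the list. The sum without RELN was not tested. Of the 17 genes, KDR was lower on the left in oil and 15 were higher (SOX7, EMCN, TIE1, PLVAP, MMRN2, ENG, CDH5, PECAM1, TEK, ESAM, ERG, SOX18, ACVRL1, EGFL7 and CD34). The list of 17 was chosen with earlier results of these data known. It leaves out THBD, TAL1 and LMO2, which were lower on the left in oil, and VWF, S1PR1, GATA2 and HHEX, not called there. Of the 5 tested lymphatic genes FLT4 was higher and STAB1 lower. Over all tested genes 18.4% were called higher and 18.1% lower, so the lymphatic counts are near the share over all genes. The LYVE1 to CDH5 ratio of FPKM was 0.112 to 0.147 in left oil ducts and 0.228 to 0.318 in right oil ducts, and the PROX1 to CDH5 ratio 0.00764 to 0.0165 and 0.0216 to 0.0238, both apart between the sides (two-sided exact permutation test, p = 0.1, the smallest this design gives). LYVE1 and PROX1 had no call between the sides in oil, while CDH5, the divisor, was higher on the left (1.24 ± 0.13). In left and right EE ducts the first ratio was 0.113 to 0.17 and 0.137 to 0.246. The second was 0.00836 to 0.0221 and 0.0126 to 0.0241.

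**Figure D5:**
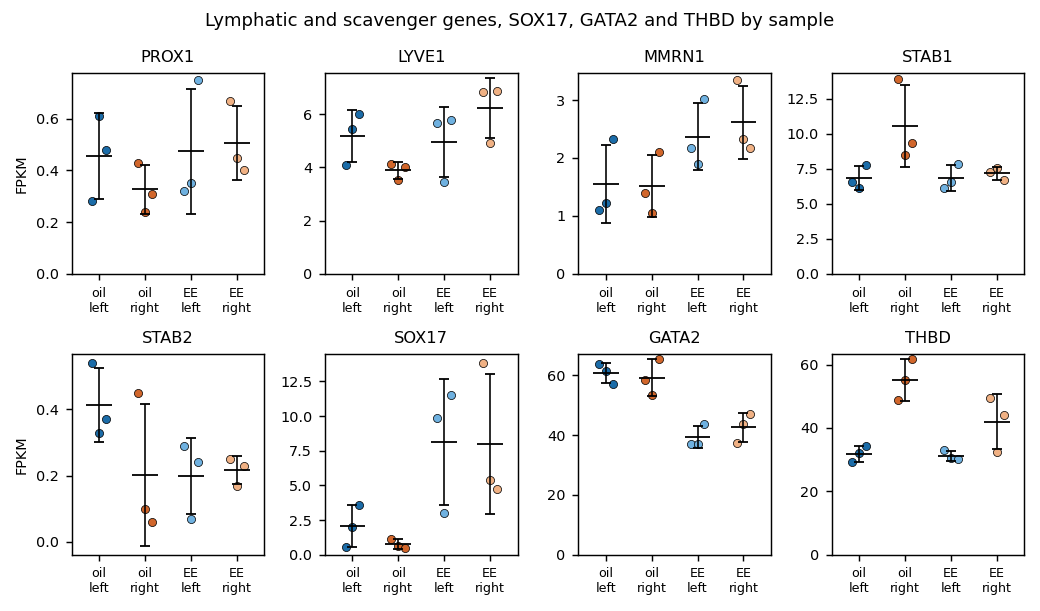
FPKM (vertical axes) of PROX1, LYVE1, MMRN1, STAB1, STAB2, SOX17, GATA2 and THBD in the 3 samples (points) of each group, with the mean (line) and ± 1 SD (bar, which reaches below 0 for STAB2 in right oil ducts). PROX1 stays at or under 0.75 and STAB2 at or under 0.54, SOX17 is scattered within both EE groups (3.00 to 13.8), GATA2 is lower in the 6 EE samples, and THBD and STAB1 are highest in right oil ducts.

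Other vessel genes, listed apart from the 43 with earlier results of these data known, were counted in the same fit. Over all tested genes, 18.4% were called higher and 18.1% lower on the left in oil. With EE 17.6% rose and 16.4% fell in right ducts, and 6.79% rose and 6.46% fell in left ducts. Of 23 other endothelial genes, 16 were higher on the left in oil and 2 were lower, with a median log2 ratio of 0.79, and 13 were higher and 1 lower with EE in right ducts, with a median of 0.66. They included DYSF, a membrane repair protein (1.54 ± 0.14 and 1.14 ± 0.14), and SHE, a signalling adaptor (1.0 ± 0.12 and 0.86 ± 0.12). In left ducts 2 of the 23 fell with EE, ADGRL4, an adhesion receptor of sprouting endothelium (-0.78 ± 0.13), and ELK3, an ETS factor (-0.37 ± 0.09), which lost the call without EE_left 2 (adjusted p = 0.0549). Of 9 other lymphatic genes, 5 were higher on the left in oil and 1 was lower, the latter count being below the share over all genes. RELN, a secreted protein of lymphatic endothelium and neurons, was at 30.1 to 36.2 FPKM in left oil ducts and 10.49 to 17.9 in right oil ducts (1.07 ± 0.15), and ADAMTS3, the protease that helps to activate VEGFC, was lower on the left in oil (-0.63 ± 0.09).

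Of 15 genes of arteries and veins, 8 were higher on the left in oil and none was lower, against 18.4% and 18.1% of all tested genes. With EE in right ducts 5 rose and 1 fell, against 17.6% and 16.4%, so the count of falling genes is below that share. In left ducts, where 6.46% of all tested genes fell and 6.79% rose with EE, 6 of the 15 fell and none rose. They included DLL4, the Notch ligand of tip and arterial cells, which fell in left (-0.76 ± 0.14, adjusted p = 0.00165) and in right ducts (-0.82 ± 0.14, adjusted p = 0.000347), from 8.52 to 14.6 FPKM in the oil samples to 6.30 to 8.83 in the EE samples. NRP1, a co-receptor of VEGFA, fell in left ducts (-0.56 ± 0.10, adjusted p = 0.00166), and EFNB2, the ephrin of arteries, rose in right ducts (0.98 ± 0.11, adjusted p = 6.06e-06). Of 28 tested genes of vessel growth pathways, 9 also stand in the endothelial, lymphatic, arterial and venous or mural lists. Of the other 19, 4 were higher on the left in oil and 3 were lower (21.1% and 15.8%, against 18.4% and 18.1% of all tested genes). With EE 3 rose and 3 fell in left ducts (15.8% each, against 6.79% and 6.46%), and 5 rose and 4 fell in right ducts (26.3% and 21.1%, against 17.6% and 16.4%). APELA, the other ligand of APLNR, was at 8.94 to 9.66 FPKM in left oil ducts, 3.20 to 4.24 in right oil ducts and 11.7 to 13.9 in the EE samples (1.63 ± 0.12 for EE in right ducts, adjusted p = 1.09e-07). THBS1, an inhibitor of vessel growth, fell with EE in left (-0.89 ± 0.09) and right ducts (-0.78 ± 0.09). Over all tested genes 18.1% were lower on the left in oil, and 6.46% and 16.4% fell with EE in left and right ducts. Of 13 genes of the hypoxia response, to which VEGFA also belongs, 7 were lower and none higher on the left in oil. With EE 2 of the 13 fell in left ducts and 7 in right ducts. They included SLC2A1, a glucose transporter (-0.79 ± 0.11 between sides in oil), and LOX, a collagen cross-linking enzyme (-0.86 ± 0.08 and -0.85 ± 0.08 for EE in left and right ducts).

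Transcripts of other cell types also differed between the groups, in directions that varied between and within lists. Over all tested genes, 18.4% were called higher and 18.1% lower on the left in oil. With EE 17.6% rose and 16.4% fell in right ducts, and 6.46% fell in left ducts. The summed level of 15 genes of dividing cells was 1901 to 2153 CPM in left oil ducts, 449.4 to 519.5 in right oil ducts, 1560.0 to 1837 in left EE ducts and 1222 to 1489 in right EE ducts, and all 15 were called higher on the left in oil and higher with EE in right ducts. Of 6 erythroid genes besides TAL1 all 6 were lower on the left in oil and 2 fell with EE in right ducts, and of 9 tested macrophage genes 7 were lower in each of these comparisons. Of 6 tested thrombocyte genes, ITGB3 was higher and F13A1 and GP1BB lower on the left in oil. Of 9 genes listed for mural cells, 6 were higher on the left in oil (CSPG4, MYH11, CNN1, DES, ABCC9 and KCNJ8). These bulk values do not show whether vessel cells or other cells of the duct made those transcripts. PDGFRB was lower, and RGS5 and MCAM had no call. Of 8 duct epithelial genes, 5 were higher on the left in oil and 6 rose with EE in right ducts, with none lower in either. Of 8 genes of duct mesenchyme, 3 were higher and 1 lower on the left in oil, and 6 fell with EE in each duct. The counts of higher thrombocyte genes and of lower mural and mesenchyme genes in oil are near or below the share over all genes. The thrombocyte marker ITGA2B was at 0 to 1.57 FPKM. With haemoglobin as a covariate, 16 of the 39 vessel genes were called between the sides in oil (14 higher and 2 lower on the left), in place of 29, and the haemoglobin share itself did not overlap between left and right oil ducts. The share of all tested genes called with this covariate is not given here. The drop is therefore not shown to be particular to the vessel genes. The part of dividing, mural, macrophage, epithelial and mesenchymal cells in these values was not tested.

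Between left and right EE ducts, 0 of the 39 genes were called by edgeR, where 0% of all tested genes were called higher and 0.0826% lower on the left. DESeq2 and limma also called 0. In the edgeR fit 5 of the 39 had an unadjusted p under 0.05, as did 910 of all 12113 tested genes. The median log2 ratio was 0.003 against 0.0059 over all tested genes, and the single ratios ran from -0.82 ± 0.37 for TAL1 to 0.29 ± 0.12 for PECAM1. THBD, at -0.46 ± 0.14 (adjusted p = 0.359), was called without EE_right 2 (-0.63, adjusted p = 0.0208).

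The change of the left to right difference with exposure was itself tested, as the log2 difference in EE minus that in oil. Of the 39 genes, 16 were lower and 3 higher, where 6.53% and 4.68% of all tested genes were called, with a median of -0.69 against 0.0072. The lowest values were for PLVAP (-1.99 ± 0.24, adjusted p = 6.88e-05), ESM1 (-1.66 ± 0.36, adjusted p = 0.00635) and FLT1 (-1.51 ± 0.20, adjusted p = 0.000142), whose left to right log2 ratios with EE were 0.12, 0.003 and 0.28. KDR (1.10 ± 0.28, adjusted p = 0.016), ANGPT1 (1.17 ± 0.33, adjusted p = 0.0329) and STAB1 (0.71 ± 0.20, adjusted p = 0.0334) went the other way. KDR stood at 0.73 without oil_right 2 (adjusted p = 0.0128). ANGPT1 lost the call in 9 of 12 fits that left out 1 library, all but those without oil_right 2, EE_left 1 or EE_right 1 (adjusted p from 0.0563 to 0.0802). STAB1 lost it without oil_left 1, oil_left 2, oil_right 1, EE_left 2, EE_left 3, EE_right 2 or EE_right 3 (adjusted p from 0.0514 to 0.0937). VEGFA (0.39 ± 0.17), VEGFC (-0.25 ± 0.24) and SOX17 (-1.23 ± 0.83) did not pass this test.

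Right EE ducts were also set against left oil ducts, the group whose duct persists in females without added oestrogen. Of the 39 genes 3 were higher and 10 lower in right EE ducts, where 8.87% and 9.52% of all tested genes were called, with a median log2 ratio of -0.17 against 0.009. The count of higher genes is near the share over all genes. VEGFC (0.79 ± 0.17, adjusted p = 0.00409) and SOX17 (2.03 ± 0.58, adjusted p = 0.023) were higher, and THBD (0.42 ± 0.14, adjusted p = 0.045) lost its call in 9 of 12 fits that left out 1 library. FLT1 (-0.76 ± 0.14, adjusted p = 0.00134), ACVRL1 (-0.71 ± 0.18), ERG (-0.72 ± 0.19), ENG (-0.60 ± 0.11), TEK (-0.59 ± 0.17), PLVAP (-0.57 ± 0.17), GATA2 (-0.50 ± 0.09), EMCN (-0.45 ± 0.10), PECAM1 (-0.44 ± 0.12) and MMRN2 (-0.30 ± 0.10) were lower. The count of calls was 8 without oil_left 1 and 5 without EE_right 1, and 5 genes (VEGFC, FLT1, ENG, GATA2 and EMCN) kept the call in all 12 fits that left out 1 library. SOX17 lost it without oil_left 1, oil_left 2 or EE_right 1, where its log2 ratio was 1.33 (adjusted p = 0.155). Among the genes without a call were KDR (0.04 ± 0.20), SOX7 (0.01 ± 0.08), TIE1 (-0.17 ± 0.11), CDH5 (-0.30 ± 0.13) and FLT4 (-0.15 ± 0.15).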

How the data were processed

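Poly(A) RNA was sequenced from 12 duct samples. Per the submitters' processing notes, the authors used cutadapt 1.9.1, HISAT2 2.0.1, HTSeq 0.6.1 and DESeq2 1.6.3, with build, annotation and strand setting not given in the sources used here. Start and end matched the RefSeq gene table of Coturnix japonica 2.1 for all 16013 genes. Raw counts and FPKM values by the authors are in the deposited table, and the FPKM were returned from the counts and the exonic lengths to within 0.005. All 12 samples and every value column were used.

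The two-sided quasi-likelihood test of edgeR 4.0.16 (R 4.3.3), with TMM scaling, was run on the counts in 1 model of 4 group means, over 12113 genes with at least 1 FPKM in at least 3 of the 12 samples. The fit was first run on genes at 1 FPKM in every sample of at least 1 group. The minimum was changed after that run, to the one used in an earlier analysis of these data, and the first is kept as an alternative chosen after seeing the data. A gene was called at a Benjamini-Hochberg adjusted p under 0.05 over all genes tested, and each adjusted p given is from this test unless another tool is named. The 6 contrasts were left minus right in oil and in EE, EE minus oil in left and in right ducts, right EE minus left oil ducts, and the interaction. Log2 ratios carry their SE. They are relative to TMM scaling, while FPKM are not: scaling by library size alone moved the median of all genes by 0.18 for left minus right in oil, 0.17 for EE in right ducts and -0.15 for the interaction. Ratios of FPKM between genes were compared with two-sided exact permutation tests over samples. The fit was tested on simulated data with known changes.

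The genes, role groups and further lists were chosen with earlier results of these data known, and the lists serve as descriptions. All listed genes found by symbol are named, and up to 4 genes with the lowest p from each further list. Alternatives were DESeq2 1.42.0, limma 3.58.1 on log2(FPKM + 1) and log2(FPKM + 0.1), library-size scaling, other filters and a fit to the compared groups alone. Further ones were a replicate block, leaving out haemoglobin genes, and leaving out single or set libraries. The haemoglobin covariate was the log2 of the summed CPM of the 7 haemoglobin genes. Replicates of a group differed beyond sampling noise in every pair.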

Additional observations from a re-analysis of the deposited data

Results flagged for a closer look

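For 19 of the 39 tested genes and for the kdr-like gene, the difference between left and right ducts was not the same under EE as in oil by the test of that change (edgeR quasi-likelihood test, adjusted p under 0.05), given as the log2 difference in EE minus that in oil. Among receptors these values were -1.51 for FLT1, 1.10 for KDR, 1.55 for LOC107312792, -0.95 for FLT4, -1.26 for TEK, -1.39 for TIE1, -1.40 for APLNR and -1.19 for ENG. The ligand ANGPT1 stood at 1.17. The transcription factors SOX7, SOX18 and ERG stood at -1.07, -0.91 and -1.29. The junction and surface genes CDH5, PECAM1, ESAM, EMCN and PLVAP stood at -1.11, -0.69, -1.11, -1.27 and -1.99, the secreted proteins ESM1 and MMRN2 at -1.66 and -0.85, and the scavenger receptor STAB1 at 0.71. Of the 39 genes, 16 were lower and 3 higher in this test, where 6.53% and 4.68% of all tested genes were called. The test uses the same 3 right oil libraries as the comparisons of sides in oil and of right ducts, so it is no independent result.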

How the results depend on the processing

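Of the calls, 16 of 29 between sides in oil, 4 of 9 for EE in left ducts (VEGFA, VEGFC, ENG and GATA2), 21 of 29 for EE in right ducts, 3 of 13 for right EE against left oil ducts and 15 of 19 for the interaction held in every alternative run. With haemoglobin as a covariate 16 genes were called between sides in oil (main count 29), and TAL1 and LMO2 turned sign there, to 0.30 and 0.25, neither called. In the interaction KDR and PECAM1 then lost the call (adjusted p = 0.0683 and 0.0533). The cause was not tested, and the covariate does not overlap between the sides in oil. The share of all tested genes called with it is not given here, so the lower counts are not shown to be particular to these genes. For EE in left ducts limma on log2(FPKM + 0.1) called 5 genes (main count 9), and limma on log2(FPKM + 1) called 2 higher and 4 lower. For right EE against left oil ducts 5 genes were called without oil_left 1, oil_right 1 and EE_right 1, libraries that an earlier analysis of these data set apart (main count 13). Under library-size scaling the interaction had 1 gene higher and 18 lower, where 309 and 1208 of all tested genes were called. Leaving out 1 library gave 0 to 1 calls between sides with EE (THBD), 5 to 10 for EE in left ducts and 5 to 14 for right EE against left oil ducts. Same-numbered left and right samples of an exposure had correlated deviations from -0.022 to 0.147, with 2 of 6 pairs over 0.1. In oil the same-numbered pairs (0.051, 0.139 and 0.147) all lay above the differently numbered ones (-0.149 to 0.023). In EE the same-numbered pairs (-0.022, -0.008 and 0.073) lay within the range of the others (-0.15 to 0.157). The labels do not state a pairing, and the main fit did not take the numbers as pairs. With the replicate block the counts were 28 between sides in oil, 0 between sides with EE, 8 and 28 for EE in left and right ducts, 12 for right EE against left oil ducts and 19 for the interaction. With the block nested in exposure they were 28, 0 and 20 for the comparisons of sides in oil, of sides with EE and the interaction. With 1 FPKM required in every sample of at least 1 group, a minimum tried before the one reported, the counts were 29, 0, 9, 29, 13 and 19 in the order just given for the single block. PROX1 and STAB2 had no call in the fit without an FPKM minimum.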
